A study of Mus musculus with 8 samples.

Results

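The 10 genes described here regulate the G1 phase of the cell cycle: the D cyclins *Ccnd1*, *Ccnd2* and *Ccnd3*, the E cyclins *Ccne1* and *Ccne2*, the kinases *Cdk4* and *Cdk6*, and the CDK inhibitors *Cdkn1b*, *Cdkn1c* and *Cdkn2b*. They were taken by symbol, as 10 of the 23467 genes measured, and all 10 averaged at least 1 RPKM, the minimum for a gene to be tested. RPKM counts a gene's reads relative to its length and to the reads sequenced for the library, so that levels of different genes can be set side by side. Control cells were wild type, L1L2_Alb cells were *Lats1*-/-; *Lats2* fl/fl; Alb-cre, and all were from mice of a mixed B6;129 strain. In L1L2_Alb cells *Lats1* is lost throughout the animal, whereas *Lats2* is deleted only where the albumin promoter drives Cre. Hepatoblasts of E14.5 livers were cultured on collagen (iHBs, 1 control and 1 L1L2_Alb library), were given oncostatin M at 12.5 ng ml-1 for 5 days towards hepatocytes (iHPs, 1 control and 2 L1L2_Alb libraries), or were kept on Matrigel for 14 days towards biliary epithelial cells (iBECs, 1 control and 2 L1L2_Alb libraries). The cyclins and the inhibitors are compared between genotypes and between stages.

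D cyclins bind CDK4 and CDK6 and phosphorylate the retinoblastoma family of pocket proteins, which frees E2F factors to switch on the genes of DNA synthesis. E cyclins, themselves E2F targets, bind CDK2 and carry the cell into S phase. *Cdkn2b* encodes p15INK4b, which binds CDK4 and CDK6 and keeps D cyclins off them, whereas *Cdkn1b* (p27KIP1) and *Cdkn1c* (p57KIP2) bind cyclin and kinase together. Loss of the LATS kinases releases the coactivators YAP and TAZ, which act with TEAD factors on growth genes.

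The libraries held between 18436865 and 33229075 reads. RNA of *Lats1* was not lower in the libraries labelled L1L2_Alb (log2 difference 0.44, adjusted p = 0.46, limma) and that of *Lats2* was higher (0.90, adjusted p = 0.0312), so these genes do not check the labels at the RNA level. The YAP targets *Ctgf* and *Cyr61* were higher by 1.73 and 1.93 on the log2 scale (adjusted p = 0.00796 and 0.00222). Of these calls, that of *Cyr61* held in all 15 alternatives. The 5 hepatoblast and hepatocyte markers and the 5 biliary markers were each above 1 RPKM in every library. Of the former *Alb*, *Ttr* and *Hnf4a* were called lower in L1L2_Alb, and of the latter *Krt7* and *Krt19* higher and *Spp1* lower. The 7 fibroblast markers were above 1 RPKM throughout, and all 7 had lower fitted values in L1L2_Alb, with none past the threshold. Their summed level was 2379 to 3872 RPKM in the control libraries and 652 to 3524 RPKM in the L1L2_Alb libraries. Against the control of the stage, all 7 were lower in L1L2_Alb iHB and iHP replicate 2, and 6 of 7 in iHP replicate 1. In L1L2_Alb iBECs all 7 were higher in replicate 1 and 1 of 7 in replicate 2. The 6 macrophage and leukocyte markers found in the table summed to 1340 to 2178 RPKM in the controls and 680 to 3107 RPKM in L1L2_Alb. The endothelial markers were low, with a sum of at most 5.17 RPKM and none called. *Pecam1* was at 4.01 and 4.18 RPKM in control iHB and iHP and at most 0.87 RPKM in the other libraries. *Kdr* went the other way, with a fitted difference of 0.97. The erythroid markers summed to at most 107 RPKM, with *Hbb-b1* called lower. The part of these other cells in the values of the 10 genes was not tested, and in RNA of whole cultures fewer cells of a type and less RNA per cell cannot be told apart.

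The stretch of 250 bases before the start of transcription is shown for 3 genes that went one way in all 5 L1L2_Alb libraries, *Cdkn2b* and *Cdk6* (higher) and *Ccne1* (lower). The sequences are those of RefSeq (GRCm38.p6), which gave 7 such stretches for 6 of the 10 genes. They are written 5′ to 3′ on the strand of the gene, for *Cdkn2b* at chr4:89311033-89311282 (minus strand), for *Cdk6* at chr5:3343643-3343892 (plus strand) and for *Ccne1* at chr7:38107491-38107740 (minus strand). Capitals mark matches on either strand to CACGTG (the E-box read by MYC family factors) and TTTNNCGC (a loose E2F word, N being any base). They also mark TGACGTCA (the cyclic AMP response element, CRE), GGGCGG (SP1), CATTCC (TEAD) and TGANTCA (AP-1). None of these matches overlapped each other here.
Cdkn2b: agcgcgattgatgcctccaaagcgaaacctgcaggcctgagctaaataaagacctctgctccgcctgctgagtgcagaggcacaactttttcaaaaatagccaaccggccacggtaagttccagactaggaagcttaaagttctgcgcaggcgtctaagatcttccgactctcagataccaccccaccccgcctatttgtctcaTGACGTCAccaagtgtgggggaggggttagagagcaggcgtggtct
Cdk6: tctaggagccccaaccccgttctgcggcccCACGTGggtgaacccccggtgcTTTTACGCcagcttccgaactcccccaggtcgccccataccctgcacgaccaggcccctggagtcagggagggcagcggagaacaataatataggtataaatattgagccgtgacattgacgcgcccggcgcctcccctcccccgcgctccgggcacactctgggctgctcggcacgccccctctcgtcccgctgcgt
Ccne1: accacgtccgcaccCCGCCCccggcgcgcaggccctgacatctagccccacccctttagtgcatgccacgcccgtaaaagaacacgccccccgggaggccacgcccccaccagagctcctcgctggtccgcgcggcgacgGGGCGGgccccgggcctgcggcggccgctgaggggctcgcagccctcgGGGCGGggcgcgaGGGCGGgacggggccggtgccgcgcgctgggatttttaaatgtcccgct

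The *Cdkn2b* stretch held 1 CRE, a word found in 1.55% of the 32851 mouse stretches of the same length. The *Cdk6* stretch held 1 loose E2F word, found in 4.28% of all stretches, and 1 E-box, found in 6.02%. The loose word takes any base at N, where an E2F site has C or G, and the *Cdk6* match has T and A there. The *Ccne1* stretch held 4 SP1 words, and at least 1 such word stood in 5 of the 7 stretches of these genes and in 32.7% of all. The TEAD word was in 1 of the 7, from *Ccnd3*, against 12.6% of all stretches, and the AP-1 word was in 0 of the 7 against 6.75%. A match is a description of the letters only, and says nothing of which factor was bound in these cells.

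*Cdkn2b* was the member that differed most between the genotypes. Among iHBs the control held 28.7 RPKM and the L1L2_Alb library 115 RPKM. Of the iHP libraries, the control held 13.0 RPKM and the L1L2_Alb pair 50.2 and 84.0 RPKM. Of the iBEC libraries, the control held 17.9 RPKM and the L1L2_Alb pair 35.1 and 57.5 RPKM. Every L1L2_Alb library was above all 3 controls, so that the genotypes did not overlap even across stages. Fitted over the 3 stages with limma on log2(RPKM + 1), with stage as a block, *Cdkn2b* rose by 1.82 (SE 0.275, adjusted p = 0.0081). In mean RPKM that was 4.02-fold in iHBs, 5.18-fold in iHPs and 2.58-fold in iBECs, with 1 control library in each stage and hence no test within a stage. Each genotype fit rests on these controls, and without the iHB stage or without the iHP stage the adjusted p was 0.0533 and 0.0747, with differences of 1.76 and 1.58.

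*Cdkn2b* was the 1 of the 10 members past the threshold of an adjusted p of 0.05 for genotype, where 9.57% of the 13421 genes tested passed and 6.2% passed as higher (832 higher and 452 lower, or 612 and 577 with each library scaled to the same upper quartile). At an unadjusted p under 0.05, 7 of 10 members stood against 26.3% of all genes, and at an adjusted p under 0.1, 5 of 10 against 16.5%. The members were chosen with earlier results of these data known, so these shares are a description only. No other member passed at 0.05, and the values of the others below are to be read so. The 2 L1L2_Alb libraries of iHP and of iBEC share the control of their stage. It is not stated whether they came from separate embryos or cultures, so the spread within a pair may be technical. The fit of stage and genotype left 4 residual degrees of freedom, against 2 for a fit of the 6 conditions (stage and genotype together). The spread behind the genotype p-values thus joins that within the pairs with changes of the genotype difference between stages. The median of the 10 log2 differences was 0.32, beside 0.058 over all genes tested. By library against the control of its stage, the median of all genes was -0.086 in L1L2_Alb iHB and 0.014 and -0.030 in iHP. In L1L2_Alb iBECs it was 0.22 and 0.26, with 9466 and 10244 of the 13421 genes above the control.

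*Cdkn1c*, the inhibitor that is imprinted and known for its role in development, was the most variable member, with a range of 33.7-fold over the 8 libraries. Among iHBs the control held 20.1 RPKM and the L1L2_Alb library 61.4 RPKM. Of the iHP libraries, the control held 14.9 RPKM and the L1L2_Alb pair 14.53 and 28.6 RPKM. Of the iBEC libraries, the control held 1.82 RPKM and the L1L2_Alb pair 6.60 and 4.22 RPKM. Thus 4 of 5 L1L2_Alb libraries were above their own control, and 1 iHP library was level with it. The fitted difference of 1.01 (SE 0.298, adjusted p = 0.0718) did not pass. Without that library, L1L2_Alb iHP replicate 1, it was 1.20 with an adjusted p of 0.0295 (limma). That was the only 1 of 15 alternatives in which it passed, and the adjusted p reached 0.285 without the iHB stage.

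*Cdkn1b*, the inhibitor that accumulates in resting cells, had lower values in L1L2_Alb iHBs and iHPs and similar values in iBECs. It was at 21.7 (control) and 9.59 RPKM (L1L2_Alb) in iHBs, 18.6 (control), 14.3 and 15.9 RPKM (L1L2_Alb) in iHPs, and 17.7 (control), 17.9 and 15.7 RPKM (L1L2_Alb) in iBECs. The fit gave -0.43 (SE 0.216, adjusted p = 0.256). The lowest level of the 8 was in the L1L2_Alb iHB library, and the groups overlapped.

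**Figure D1:**
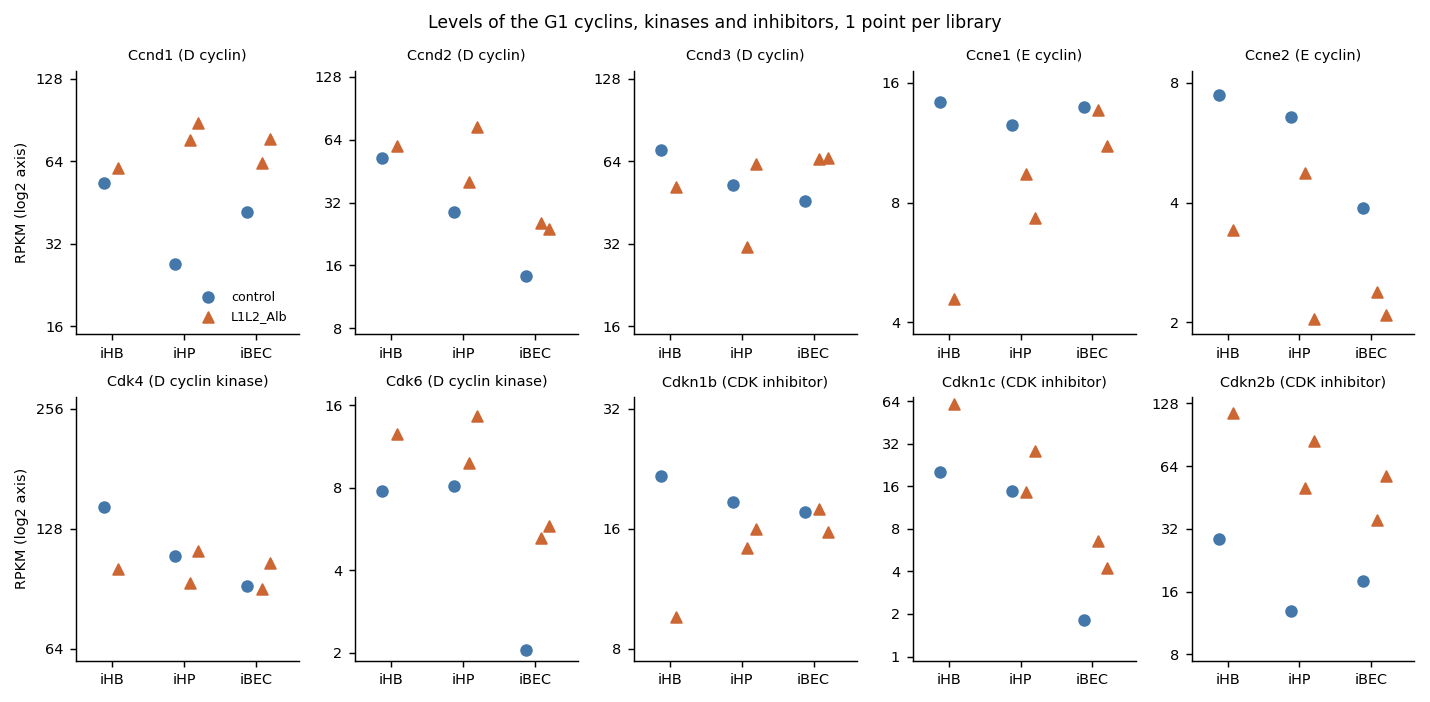
Level of each gene in each of the 8 libraries, in RPKM on a log2 axis, by culture stage. Circles are control libraries (1 per stage) and triangles L1L2_Alb libraries (1 in iHB, 2 in iHP and 2 in iBEC). *Cdkn2b* and *Ccnd1* triangles all lie above every circle, whereas *Ccnd2*, *Cdk6* and *Cdkn1c* lie lower in iBEC than in the other stages in both genotypes.

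The 3 inhibitors together went from a sum of 70.6, 46.5 and 37.4 RPKM in control iHB, iHP and iBEC to 186 RPKM in L1L2_Alb iHB, 79.1 and 129 RPKM in iHP, and 59.6 and 77.4 RPKM in iBEC. *Cdkn2b* made up 40.7%, 27.9% and 47.9% of that sum in the controls. It made up 61.9% in L1L2_Alb iHB, 63.5% and 65.3% in iHP, and 58.8% and 74.2% in iBEC. In the plot of shares, *Cdkn2b* was the largest of these 3 in every L1L2_Alb library, whereas in the controls *Cdkn1b* (30.8%, 40.1% and 47.3%) and, in iHB and iHP, *Cdkn1c* (28.5% and 32.02%) were in the same range.

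*Ccnd1*, the D cyclin most tied to growth signals, was at 53.4 RPKM in the control and 60.8 RPKM in the L1L2_Alb library of iHBs. Of the iHP libraries, the control held 27.0 RPKM and the L1L2_Alb pair 76.5 and 88.2 RPKM. Of the iBEC libraries, the control held 41.8 RPKM and the L1L2_Alb pair 63.0 and 77.3 RPKM. All 5 L1L2_Alb libraries were above all 3 controls. The difference in mean RPKM was 1.14-fold in iHBs, 3.05-fold in iHPs and 1.68-fold in iBECs. Over the stages the fitted difference was 0.89 (SE 0.251) and missed the threshold (adjusted p = 0.063, limma). It passed in 0 of 15 alternatives and was 0.49 without the iHP stage, whose control held the lowest level of all libraries. *Ccnd1* and *Cdkn2b* were the 2 members whose genotypes did not overlap over all 8 libraries, both with L1L2_Alb higher, beside 9.18% of all genes.

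*Ccnd2* was at 52.3 (control) and 59.8 RPKM (L1L2_Alb) in iHBs, 28.7 (control), 40.3 and 74.0 RPKM (L1L2_Alb) in iHPs, and 14.2 (control), 25.6 and 23.8 RPKM (L1L2_Alb) in iBECs. It was above its own control in all 5 L1L2_Alb libraries, although the L1L2_Alb iHP libraries differed widely from each other. The difference in the fit was 0.66 (SE 0.236, adjusted p = 0.121).

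*Ccnd3*, the most broadly expressed D cyclin, had no common direction. It was at 70.5 (control) and 51.8 RPKM (L1L2_Alb) in iHBs, 52.5 (control), 31.2 and 62.5 RPKM (L1L2_Alb) in iHPs, and 45.7 (control), 65.1 and 65.7 RPKM (L1L2_Alb) in iBECs. The lowest and the highest iHP libraries were both L1L2_Alb. The fitted difference was -0.02 (SE 0.269, adjusted p = 0.97), and its sign changed when the iHB stage, the iHP stage or L1L2_Alb iHP replicate 1 was left out.

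As a sum, the 3 D cyclins were at 176, 108 and 102 RPKM in control iHB, iHP and iBEC. In L1L2_Alb they were at 172 RPKM in iHB, 148 and 225 RPKM in iHP, and 154 and 167 RPKM in iBEC. *Ccnd1* held 24.9% of the D cyclin sum in control iHP and 51.7% and 39.3% in L1L2_Alb iHPs, whereas *Ccnd3* held 48.6% in the former and 21.1% and 27.8% in the latter. In iBECs the shares were much alike in both genotypes, with *Ccnd1* between 41.0% and 46.3%.

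**Figure D2:**
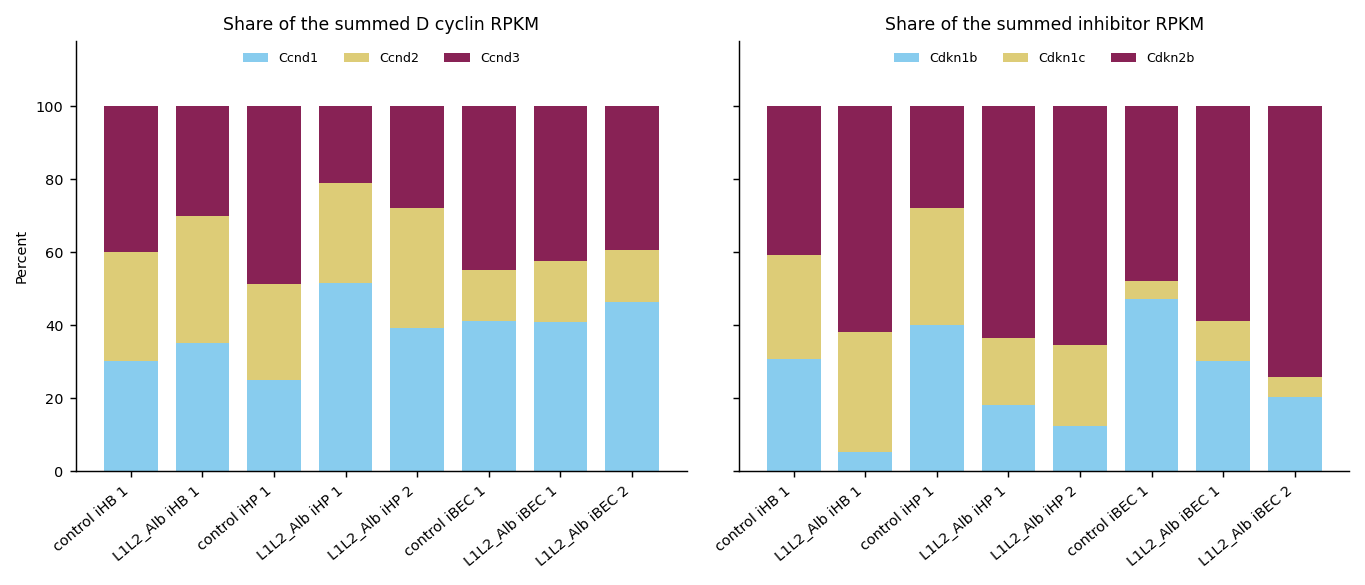
Share of each gene in the summed RPKM of the 3 D cyclins (left) and of the 3 CDK inhibitors (right), in percent, 1 bar for each of the 8 libraries. *Cdkn2b* makes up 58.8% to 74.2% of the inhibitor sum in L1L2_Alb libraries and 27.9% to 47.9% in controls, and *Ccnd2* has its smallest shares of the D cyclin sum in the 3 iBEC libraries.

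The E cyclins had lower values in L1L2_Alb cells, with neither past the threshold. *Ccne1* was at 14.3 (control) and 4.58 RPKM (L1L2_Alb) in iHBs, 12.5 (control), 9.43 and 7.32 RPKM (L1L2_Alb) in iHPs, and 13.9 (control), 13.7 and 11.1 RPKM (L1L2_Alb) in iBECs. It was below its own control in all 5 L1L2_Alb libraries, by the widest margin in iHB and by the least in iBEC. L1L2_Alb iBEC replicate 1 was nearly level with its control (log2 difference -0.025). The fit gave -0.65 (SE 0.253, adjusted p = 0.146).

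*Ccne2* was at 7.46 (control) and 3.41 RPKM (L1L2_Alb) in iHBs, 6.57 (control), 4.74 and 2.04 RPKM (L1L2_Alb) in iHPs, and 3.87 (control), 2.38 and 2.09 RPKM (L1L2_Alb) in iBECs. It too was below its own control in all 5, although the L1L2_Alb iHP libraries lay far apart. The fitted difference was -0.78 (SE 0.250, adjusted p = 0.0883). *Ccne1* and *Ccne2* were the 2 members lower in all 5 L1L2_Alb libraries, beside 10.1% of all genes. The 4 members higher in all 5 were *Ccnd1*, *Ccnd2*, *Cdk6* and *Cdkn2b*, beside 22.9% of all genes.

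Of the kinases, *Cdk4* was the most abundant of the 10 transcripts in every library but L1L2_Alb iHB and varied least, with a range of 1.60-fold. It was at 145 (control) and 102 RPKM (L1L2_Alb) in iHBs, 109 (control), 93.7 and 113 RPKM (L1L2_Alb) in iHPs, and 92.0 (control), 90.6 and 105 RPKM (L1L2_Alb) in iBECs. In the fit the difference was -0.14 (SE 0.178, adjusted p = 0.674). In the L1L2_Alb iHB library *Cdkn2b*, at 115 RPKM, was above it.

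*Cdk6* was at 7.80 (control) and 12.6 RPKM (L1L2_Alb) in iHBs, 8.09 (control), 9.86 and 14.6 RPKM (L1L2_Alb) in iHPs, and 2.03 (control), 5.24 and 5.77 RPKM (L1L2_Alb) in iBECs. It was above its own control in all 5. The fitted difference was 0.76 (SE 0.213, adjusted p = 0.0609, limma), and with quantile normalization it was just past the threshold (adjusted p = 0.0461). That was the only 1 of 15 alternatives in which *Cdk6* passed, and the adjusted p reached 0.275 without the iBEC stage. The ratio of *Cdk4* to *Cdk6* was 18.6, 13.5 and 45.2 in control iHB, iHP and iBEC. It was 8.06 in L1L2_Alb iHB, 9.51 and 7.72 in iHP, and 17.3 and 18.2 in iBEC, in each stage below that of the control. The control iBEC value of *Cdk6* rested on 167 reads, the fewest of any member whose reads could be recovered, which gives a counting error of 7.74%.

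**Figure D3:**
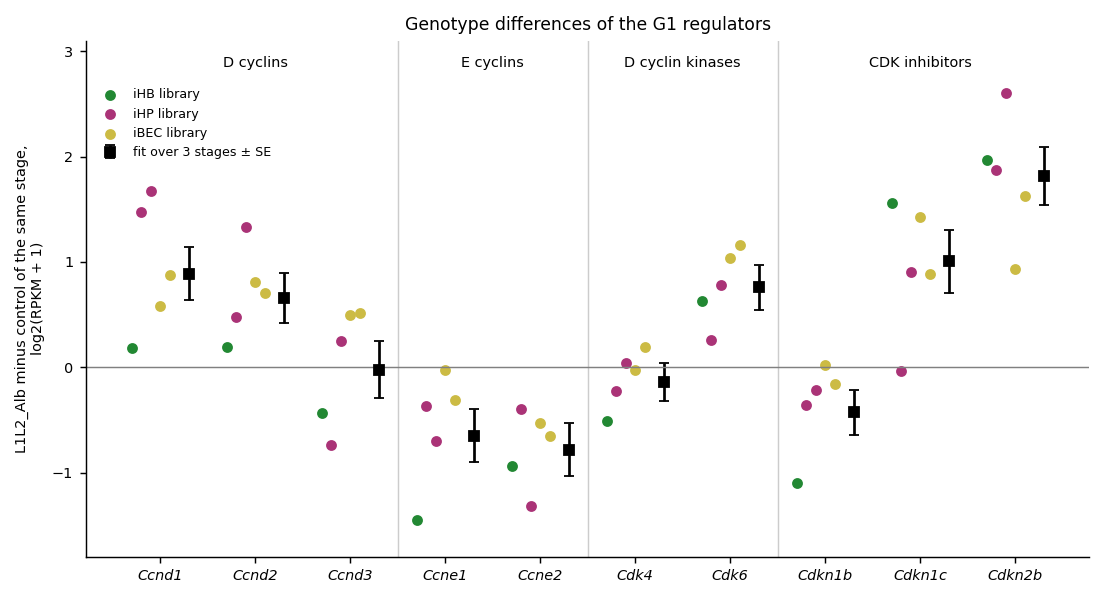
Difference of log2(RPKM + 1) between each L1L2_Alb library and the control library of its stage (coloured points, 5 per gene) and the limma fit over the 3 stages with its standard error (black squares). All 5 points lie above 0 for *Ccnd1*, *Ccnd2*, *Cdk6* and *Cdkn2b* and below 0 for *Ccne1* and *Ccne2*, and the fit of *Cdkn2b*, at 1.82, is the only one of the 10 past the threshold.

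The summed D cyclins were 8.10, 5.68 and 5.71 times the summed E cyclins in control iHB, iHP and iBEC. In L1L2_Alb the ratio was 21.6 in iHB, 10.4 and 24.0 in iHP, and 9.57 and 12.7 in iBEC, in each library above all 3 controls. The mean log2(RPKM + 1) of the D cyclins exceeded that of the inhibitors by 1.29 in control iHB against 0.45 in L1L2_Alb iHB. That excess was 1.12 in control iHP against 1.03 and 1.11, and 1.64 in control iBEC against 1.48 and 1.56. In iHPs and iBECs the excess over these 3 inhibitors was thus close to that of the control in all 4 L1L2_Alb libraries. Their mean leaves out the inhibitors *Cdkn1a* and *Cdkn2a*, given below. Both were called higher in L1L2_Alb (1.03 and 2.52, adjusted p = 0.0117 and 0.00439, limma). The closeness is thus stated for these 3 inhibitors only, and the excess over all CDK inhibitors is not shown. The E cyclins were below the inhibitors by a log2 difference of -1.09 in control iHB against -3.10, of -0.69 in control iHP against -1.57 and -2.80, and of -0.23 in control iBEC against -1.30 and -1.50.

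With D and E cyclins pooled, the L1L2_Alb minus control difference of cyclins minus inhibitors was -1.30 in iHB, -0.63 in iHP and -0.54 in iBEC. *Ccnd1* was 1.86, 2.08 and 2.33 times *Cdkn2b* in control iHB, iHP and iBEC. That ratio was 0.53 in L1L2_Alb iHB, 1.52 and 1.05 in iHP, and 1.80 and 1.35 in iBEC, so that *Cdkn2b* exceeded *Ccnd1* in 1 library, L1L2_Alb iHB. No test was made of these sums and ratios, since their members were chosen with results of these data known.

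**Figure D4:**
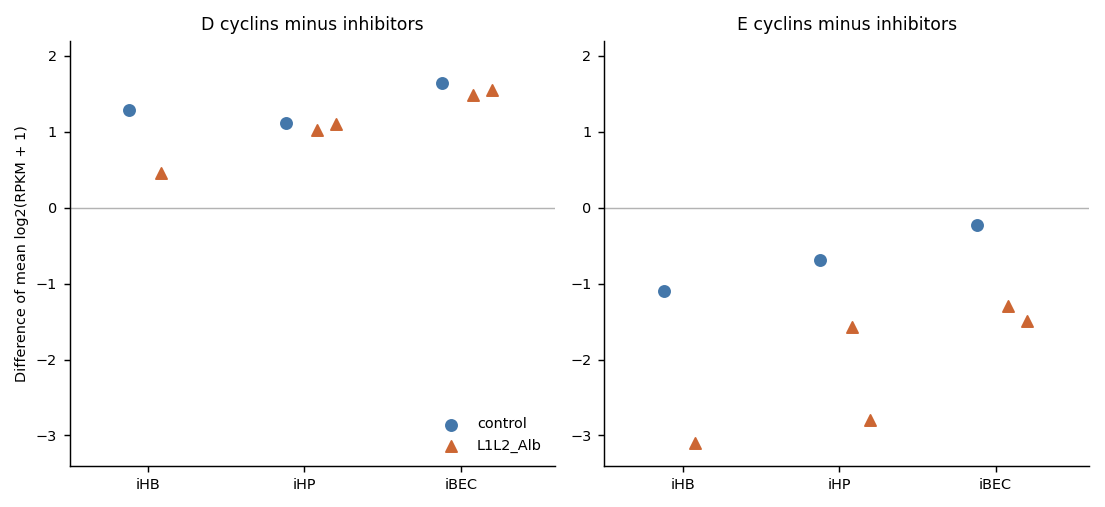
Mean log2(RPKM + 1) of the 3 D cyclins (left) or the 2 E cyclins (right) minus that of the inhibitors *Cdkn1b*, *Cdkn1c* and *Cdkn2b*. There is 1 point per library, circles for control and triangles for L1L2_Alb. *Cdkn1a* and *Cdkn2a*, both called higher in L1L2_Alb, are left out of that mean. In iHP and iBEC the triangles lie close to the circles for D cyclins and below them for E cyclins, where L1L2_Alb libraries reach -3.10 in iHB and -2.80 in iHP.

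Whether the genotype difference itself varied with stage was tested with the moderated F test of limma on the 6 conditions. It called 0 of the 13421 genes (733 at an unadjusted p under 0.05, 5.46%), and none of the 10 members was under an unadjusted p of 0.05. *Ccnd1*, with 0.18 in iHB and 1.57 in iHP, came nearest (F = 3.52, unadjusted p = 0.0857). With 2 residual degrees of freedom and 1 library for most conditions, this does not show that the differences were alike.

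The stages differed in a few members, in the same fit with genotype as a block. Between iHP and iHB, 0 of 10 members and 0% of all genes were called (limma), with 2 members and 1158 genes (8.63%) at an unadjusted p under 0.05. These members were *Cdkn1c* (-1.07, adjusted p = 0.476) and *Cdkn2b* (-0.88, adjusted p = 0.515). In iBECs, 3 of 10 members fell against iHBs, beside 5.72% of all genes called (395 higher and 373 lower, the latter 2.78% of the genes tested). *Cdkn1c* fell by 3.08 on the log2 scale (SE 0.371, adjusted p = 0.00343), *Ccnd2* by 1.51 (SE 0.295, adjusted p = 0.0242) and *Cdk6* by 1.24 (SE 0.265, adjusted p = 0.0329).

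Each of the 3 iBEC libraries lay below every iHB and iHP library for these genes, which held for 8.84% of all genes. The highest iBEC level of *Cdkn1c* was 6.60 RPKM and the lowest elsewhere 14.53 RPKM. For *Ccnd2* these were 25.6 and 28.7 RPKM, and for *Cdk6* 5.77 and 7.80 RPKM. The share of *Ccnd2* in the D cyclin sum was 14.0% to 16.7% in iBECs and 26.5% to 34.7% in the other stages. The other D cyclins had differences of -0.10 (*Ccnd1*, adjusted p = 0.861) and -0.05 (*Ccnd3*, adjusted p = 0.933) between iBEC and iHB.

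Against iHPs, *Cdkn1c* fell by 2.01 (SE 0.329, adjusted p = 0.0184) and *Cdk6* by 1.19 (SE 0.235, adjusted p = 0.0335) in iBECs, as 2 of 10 members beside 4.12% of all genes, 1.67% lower (329 higher and 224 lower, or 459 and 169 with upper-quartile scaling). *Ccnd2* did not pass there (-1.07, adjusted p = 0.0637), except with every library scaled to the same sum (adjusted p = 0.0377). *Ccne1*, by contrast, had values of 0.69 against iHB and 0.39 against iHP (adjusted p = 0.215 and 0.448), and *Cdkn1b* of 0.29 and 0.07 (adjusted p = 0.514 and 0.896). The comparison of iBEC with iHP in L1L2_Alb cells alone, the only one with 2 libraries on both sides, called 0 of 10 members, beside 3.67% of all genes, and 3 at an unadjusted p under 0.05, beside 18.8% of all genes. *Cdkn1c* came nearest (-1.77, adjusted p = 0.0604). In it *Ccnd2* was at -1.12 (adjusted p = 0.144) and *Cdk6* at -1.001 (adjusted p = 0.147).

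The stage calls rest on few libraries. Without the L1L2_Alb iHB library, the difference between iBEC and iHB was -2.66 for *Cdkn1c* (adjusted p = 0.0893), -1.86 for *Ccnd2* (adjusted p = 0.13) and -1.34 for *Cdk6* (adjusted p = 0.286). *Ccnd2* and *Cdk6* also lost the call against iHB without control iHB (adjusted p = 0.222 and 0.236), control iBEC (0.0748 and 0.106), L1L2_Alb iBEC replicate 1 (0.0503 and 0.0788) or L1L2_Alb iBEC replicate 2 (0.0624 and 0.0635). In the comparison with iHP, *Cdkn1c* was lost without L1L2_Alb iBEC replicate 2 (adjusted p = 0.0721), and *Cdk6* was lost when any library but L1L2_Alb iHP replicate 2 was left out (adjusted p from 0.0511 to 0.107). When low genes were not filtered out, the calls against iHB ended for *Ccnd2* and *Cdk6* (adjusted p = 0.0558 and 0.0719), and those against iHP for *Cdkn1c* and *Cdk6* (0.0638 and 0.0774). With the libraries of a pair averaged the latter were at 0.0604 and 0.0960, and in L1L2_Alb libraries alone at 0.0597 and 0.145. In L1L2_Alb libraries alone *Ccnd2* and *Cdk6* were at 0.244 and 0.276 against iHB. With each library scaled to the same upper quartile, the median of all genes between iBEC and iHB moved from -0.25 to -0.0045, with 496 genes called higher and 179 lower. *Cdkn1c* was then at -2.84 (adjusted p = 0.00733), *Ccnd2* at -1.23 (adjusted p = 0.0504) and *Cdk6* at -1.01 (adjusted p = 0.0632). The fitted sign of these differences was the same in all alternatives. Erythroid markers summed to 1.57 to 3.09 RPKM in iBECs and 6.68 to 107 RPKM in the other stages, and biliary markers to 6630 to 23434 RPKM against 2325 to 3750 RPKM. The biliary sum was carried by *Spp1*, which gave 23271 of the 23434 RPKM in control iBEC and rose by 3.99 between iHB and iBEC (adjusted p = 0.00193), whereas 3 of the 5 markers had lower values in iBEC and *Krt7* fell by 2.13 (adjusted p = 0.0108). Of the hepatocyte markers, *Alb* and *Hnf4a* were higher in iBEC than in iHB, by 2.37 and 1.00 (adjusted p = 0.03 and 0.0273). Fibroblast markers had higher values in iBEC for 6 of 7 genes against iHB, with *Pdgfra* called (1.73, adjusted p = 0.0478), and for 7 of 7 against iHP, with *Lum* called (3.89, adjusted p = 0.0485). Their sum was 1580 to 3524 RPKM in iBECs and 652 to 3872 RPKM in the other stages. Macrophage and leukocyte markers had higher values in iBEC than in iHP for 6 of 6 genes, with *Emr1* called (1.46, adjusted p = 0.0446), and summed to 1340 to 3107 RPKM against 680 to 2178 RPKM. The part of these cells in the stage differences was not tested.

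**Figure D5:**
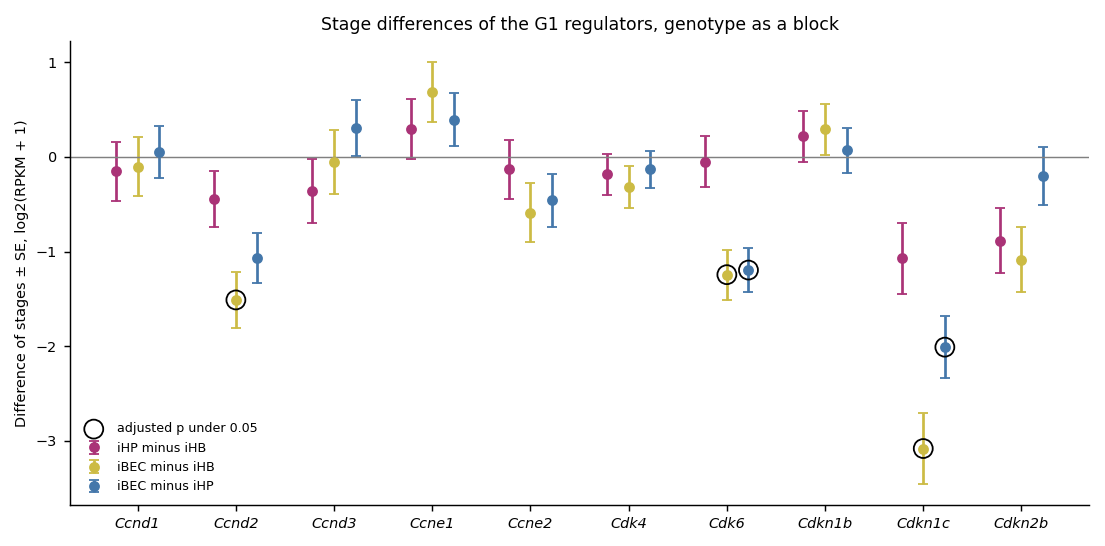
Fitted difference between stages with its standard error on the log2(RPKM + 1) scale, for iHP minus iHB, iBEC minus iHB and iBEC minus iHP, with genotype as a block. Rings mark an adjusted p under 0.05, which *Cdkn1c* and *Cdk6* have in both comparisons of iBEC and *Ccnd2* only in that with iHB.

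Among the genes that act around these 10, the inhibitor *Cdkn2a*, which is next to *Cdkn2b* on the chromosome in RefSeq and encodes p16INK4a and p19ARF, had the largest difference. It was at 18.7 (control) and 106 RPKM (L1L2_Alb) in iHBs, 11.5 (control), 82.5 and 148 RPKM (L1L2_Alb) in iHPs, and 27.0 (control), 76.9 and 146 RPKM (L1L2_Alb) in iBECs. The genotypes did not overlap, with L1L2_Alb higher, which held for 9.18% of all genes. The fitted rise was 2.52 (SE 0.323, adjusted p = 0.00439, limma). With 1 value per gene, transcripts of p16INK4a and of p19ARF cannot be told apart. *Cdkn1a*, the inhibitor p21CIP1 that p53 induces, rose by 1.03 (SE 0.175, adjusted p = 0.0117), from 169, 130 and 127 RPKM in the controls to between 226 and 305 RPKM. Without the iHP stage *Cdkn2a* was at the threshold (adjusted p = 0.05002), and *Cdkn1a* did not pass without the iHB, iHP or iBEC stage (adjusted p = 0.0613, 0.0809 and 0.0718).

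Of the 19 other CDKs, inhibitors and G1 regulators, 2 were called higher, these inhibitors, and 2 lower. The latter were *Ccna2*, the cyclin of S phase and G2 (-1.12, adjusted p = 0.0453), and *Cdk1*, the mitotic kinase (-0.75, adjusted p = 0.048). Over all genes tested, 6.2% were called higher and 3.37% lower. The median of the list was -0.29, beside 0.058 over all genes. Of the 13 pocket proteins and E2F/DP factors, 0 were called higher and 2 lower, *E2f2*, an activator (-1.19, adjusted p = 0.0402), and *E2f8*, a repressor (-1.13, adjusted p = 0.0473), with a list median of 0.064 that was -0.03 under upper-quartile scaling. *Ccna2*, *Cdk1*, *E2f2* and *E2f8* were called in 5 or 6 of their 14 or 15 alternatives.

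Of the 20 S phase and mitosis genes, 8 were called lower and 0 higher, 19 had fitted values below 0, and the list median was -0.93. Over all genes tested, 3.37% were called lower and 44.2% had fitted values below 0. *Top2a*, which untangles replicated DNA, fell by 1.44 (adjusted p = 0.0272), and *Mcm6* and *Mcm5*, subunits of the replicative helicase, by 1.32 and 1.28 (adjusted p = 0.0324 and 0.0392). *Top2a* was at 43.4, 29.9 and 20.8 RPKM in control iHB, iHP and iBEC, and at 13.8 RPKM in L1L2_Alb iHB, 7.22 and 4.40 RPKM in iHP, and 14.0 and 13.3 RPKM in iBEC. The median over the list was -1.08 in L1L2_Alb iHB, -1.31 and -1.42 in iHP, and -0.49 and -0.13 in iBEC, against the control of the stage. Over all genes tested the medians of these libraries were -0.086 in iHB, 0.014 and -0.030 in iHP, and 0.22 and 0.26 in iBEC. The number called lower depended on the libraries, with 0 without the iHB stage, 0 without the iHP stage and 13 without the iBEC stage. It was 2 without L1L2_Alb iHP replicate 1 and 4 without replicate 2, and 3 without L1L2_Alb iBEC replicate 1 and 7 without replicate 2. With the libraries of a pair averaged it was 1, and with no filter on low values 0. Upper-quartile scaling gave 12 and quantile normalization 13. The number called higher was 1 without the iBEC stage and 1 without L1L2_Alb iBEC replicate 2. In each of these alternatives 19 of 20 fitted values were below 0.

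Between stages, 2 genes of these 3 lists were called, 1 of 52 tested between iBEC and iHB and 1 of 52 between iBEC and iHP, beside 5.72% and 4.12% of all genes. They are named after their values were seen. *Wee1*, which holds CDK1 back, was lower in iBEC than in iHB (-1.56, adjusted p = 0.0247), and the INK4 inhibitor *Cdkn2c* was higher in iBEC than in iHP (0.98, adjusted p = 0.0482). *Cdkn2c* was at most 1.49 RPKM in iHPs and between 2.62 and 4.35 RPKM in iBECs. For the S phase and mitosis list the median was -0.53 between iHP and iHB, -0.24 between iBEC and iHB, and 0.39 between iBEC and iHP, with 0 genes called, beside -0.15, -0.25 and -0.09 over all genes tested.

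The genes whose profile over the 8 libraries was nearest to that of the most variable member of each role were found by the root mean square difference of centred log2(RPKM + 1). For *Ccnd2* they were *Schip1* (0.123), *Gm21949* (0.140) and *Tmem136* (0.154), where the median gene was at 0.721. For *Cdk6* they were *Ppp3ca* (0.165), *Arhgef18* (0.169) and *Spint2* (0.186), with a median gene at 0.699. For *Cdkn1c* they were *Sfn* (0.448), *Amot* (0.470) and *Fhl1* (0.480), with a median gene at 1.30. These genes shared the 8 libraries, 13421 genes were searched, and the values are a description.

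For 7 of the 10 members, an exon overlapped a gene on the other strand in GENCODE, among them *Cdkn1c* (*Gm44732*), *Cdk6* (*Gm17590*), *Cdk4* (*Tspan31*) and *Ccnd1* (*LTO1*). The library kit did not keep the strand, so that reads of the overlap cannot be told apart. *Cdkn2b*, *Ccne1* and *Cdkn1b* had no such overlap.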

How the data were processed

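RNA of the 8 cultures was made into libraries with a TruSeq kit without strand and sequenced on Illumina equipment. The submitters' processing notes name Bowtie 0.12.2 and the mouse build mm8, and the counting method and annotation are not given in the sources used here. The authors deposited 1 table of RPKM values, 1 per gene and library, not scaled further between libraries. That unit is an inference from the whole-number steps seen in short RNA genes whose length is known. Those steps gave the reads per library, and whole reads for 7 of the 10 members (within 0.02 of a whole number, not for *Ccnd3*, *Ccne2* and *Cdkn1c*). A member value rested on 167 to 9902 reads, and counting errors cover counting only.

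The table held 23471 entries, of which 4, of repeated symbols, were left out. Values were changed to log2(RPKM + 1), so that fold changes of low genes are understated, and genes averaging at least 1 RPKM went into limma 3.58.1 (R 4.3.3, lmFit and eBayes with a trend), by stage and genotype in all 8 libraries. A fit of the 6 conditions gave the F test of a difference between stages and the contrast within L1L2_Alb. Tests are two-sided, every adjusted p is from limma by the Benjamini-Hochberg method over all 13421 genes tested, and the threshold was 0.05. No count model was used, the deposited values being no counts. The procedure was tested on simulated data. Tables were made with pandas 2.3.3 and numpy 2.4.6 in Python 3.11.15, and figures with matplotlib 3.10.9. The build of the files was not at hand, so the positions given are those of RefSeq for GRCm38.p6, and overlaps were read from GENCODE by symbol.

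The members and lists were chosen with earlier results of these data known. All 10 members are named, and of the other lists the 3 largest increases and 3 largest decreases past the threshold for genotype. The alternatives were a pseudocount of 0.1, 3 other scalings, no filter or one of 5 RPKM, eBayes fitted with no trend, leaving out libraries or stages, averaging pairs, a threshold of 0.1, L1L2_Alb libraries alone and a replicate block. The stage fits without each control library or without L1L2_Alb iHB, and the unblocked fit of the 4 libraries, were added after the data were seen.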

Additional observations from a re-analysis of the deposited data

Results flagged for a closer look

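*Ccnd3* went in opposite directions by stage. In iBECs both L1L2_Alb libraries were above the control, with a mean log2 difference of 0.51. In iHBs the 1 L1L2_Alb library was below its control, by a log2 difference of -0.44. Against the same controls, the median of all genes tested was 0.22 and 0.26 in the L1L2_Alb iBEC libraries and -0.086 in L1L2_Alb iHB. The F test of a difference between stages (limma) did not call the gene (adjusted p = 1.00), and iHB has 1 library of each genotype. In iHPs the 2 L1L2_Alb libraries lay on either side of the control.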

How the results depend on the processing

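The number of genes called for genotype, 1284 of all tested, was 686 with no filter, 326 without the iHB stage, 132 without the iHP stage and 2215 at an adjusted p under 0.1, and ranged from 793 to 1227 without single L1L2_Alb libraries of a pair. Between iHP and iHB, where 0 were called, it was 2 with upper-quartile scaling and 4 with a mean of at least 5 RPKM, and from 0 to 55 without single libraries. Between iBEC and iHB (768) it was 492 with no filter and 334 in L1L2_Alb alone, and from 99 to 1739 without single libraries. Between iBEC and iHP (553) it was 211 with no filter and 62 with pairs averaged, and from 156 to 987 without single libraries. For L1L2_Alb iBEC minus L1L2_Alb iHP (492) it was 266 with the same sum in each library, 0 with no filter (limma) and from 0 to 126 without single libraries. With the title numbers as a replicate block it was 911, against 457 without the block in the same 4 libraries, and *Cdkn1c* then passed (adjusted p = 0.0266). The labels do not say that a number marks a shared origin, and the correlation of the number 1 minus number 2 differences was -0.022 over 13421 genes.

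The genotype difference of *Ccnd3* ranged from -0.15 to 0.15 without single libraries of a pair (0.15 without L1L2_Alb iHP replicate 1), and turned to 0.13 without the iHB stage and to 0.10 without the iHP stage. Of the 40 differences of members between stages, 16 changed sign under at least 1 alternative, none of them past the threshold. Between iBEC and iHB, *Ccnd1* turned to 0.18 with upper-quartile scaling, 0.15 with quantile normalization and 0.20 in L1L2_Alb alone, and ranged from -0.63 to 0.34 without single libraries. *Ccnd3* likewise turned to 0.23, 0.20 and 0.33, and ranged from -0.36 to 0.28. *Cdkn1b* ranged from -0.21 to 0.71 between iBEC and iHB and from -0.043 to 0.26 between iBEC and iHP. Differences of cyclins minus inhibitors moved by less than the spread of pairs under the pseudocount and scaling alternatives. Causes of these shifts were not tested, apart from the fewer libraries or genes that an alternative left. Reads were recovered for 7 of the 10 members, whose lowest count was 167, and depth is not shown for the others. Each stage has 1 control library.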
